A study of Homo sapiens with 24 samples.

Results

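The probes described here lost signal after knockdown of SUZ12 in untreated SW-13 cells. SW-13 is an adrenocortical carcinoma line that lacks BRG1. A probe was taken when it was detected (detection p-value below 0.01) in all 3 untreated siCtrl arrays and its mean log2 signal was lower by 1 or more, that is ≥ 2-fold, in untreated siSUZ12 cells. Of 47231 probes on the array, 14395 met the detection condition and 91 met both, after 4 probes were left out by their IDs, 3 of which met both conditions as well. The 91 probes were thus chosen by their signals in the untreated siCtrl and siSUZ12 arrays. That fall is given as a description, and all tests below compare groups of arrays that the choice did not use. The estimate of the spread in these tests came from all 24 arrays.

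SUZ12 is a core subunit of Polycomb Repressive Complex 2 (PRC2), which methylates lysine 27 of histone H3 and is best known for keeping genes silent. BRM is an ATPase that powers SWI/SNF, a complex that moves nucleosomes, and BRG1 is the alternative ATPase. PRC2 and SWI/SNF are known as antagonists at many promoters. A gene whose mRNA drops when SUZ12 is depleted moves in the direction opposite to that of a gene silenced by PRC2. IFNγ is a cytokine that switches on immune genes.

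All cells were SW-13 and all received an siRNA. The 8 groups had 50 nM siCtrl or siSUZ12, alone or together with siBRM at 75 nM, and either stayed untreated or were given IFNγ for 6 hours at a dose stated in the Methods as 0.1 mg/ml. Each group had 3 arrays, which are biological replicates of 1 cell line. Cells with siBRM carried more siRNA in total, and no group received the added amount without siBRM, so loss of BRM and the larger dose cannot be told apart. The paper reports that BRM protein rose marginally after PRC2 depletion in SW-13 cells. The siCtrl and siSUZ12 cells may thus have differed in BRM where no siBRM was given. A lower signal means less of an mRNA in the bulk sample, and fewer cells that make it cannot be told apart from less of it per cell.

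The array mean signal ran from 531.8 to 635.2, and 15223 to 16799 probes were detected per array. Each array was scaled to the same mean before log2 was taken, and arrays of 1 group correlated at 0.994 to 0.995 on that scale. The residual SD of a log2 signal had a median of 0.087 over the 91 probes (range 0.047 to 0.161) and 0.11 over all probes. No background was subtracted after deposit, which makes the folds of dim probes too small where the signals still hold it. The median signal of all probes was 109, and 0 scaled values were at or below 16. No gene names accompany the probe IDs in the files used here. The 91 probes were accordingly described as a group and by the IDs of 4 of them, and neither the genes behind them nor the depletion of SUZ12 and BRM was analysed here. Probes of SUZ12 itself, the target of siSUZ12, could therefore be among the 91. Direct effects of the siRNA on other mRNAs cannot be told apart from loss of SUZ12 on these arrays.

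In untreated siCtrl cells, the median signal of the 91 probes was 1373 (range 235 to 32026), whereas that of all 14395 detected probes was 429. The choice itself favours bright probes, since a probe near background can hardly fall ≥ 2-fold where the signals still hold background. In untreated siSUZ12 cells the median of the 91 probes was 521, against 436 for the detected probes. The median log2 change that chose them was -1.22 and the range was -2.82 to -1.002, with 12 probes lower by at least 1.5 and 79 by less. By the same contrast 0.199% of all probes were lower ≥ 2-fold. The 5 members nearest the threshold changed by -1.02 to -1.002, and the 5 nearest probes outside it by -0.997 to -0.984, so the edge of the group is not a gap. Most of the 91 probes were dimmed and not extinguished, since 86 were still detected in all 3 untreated siSUZ12 arrays and 4 in none.

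**Figure D1:**
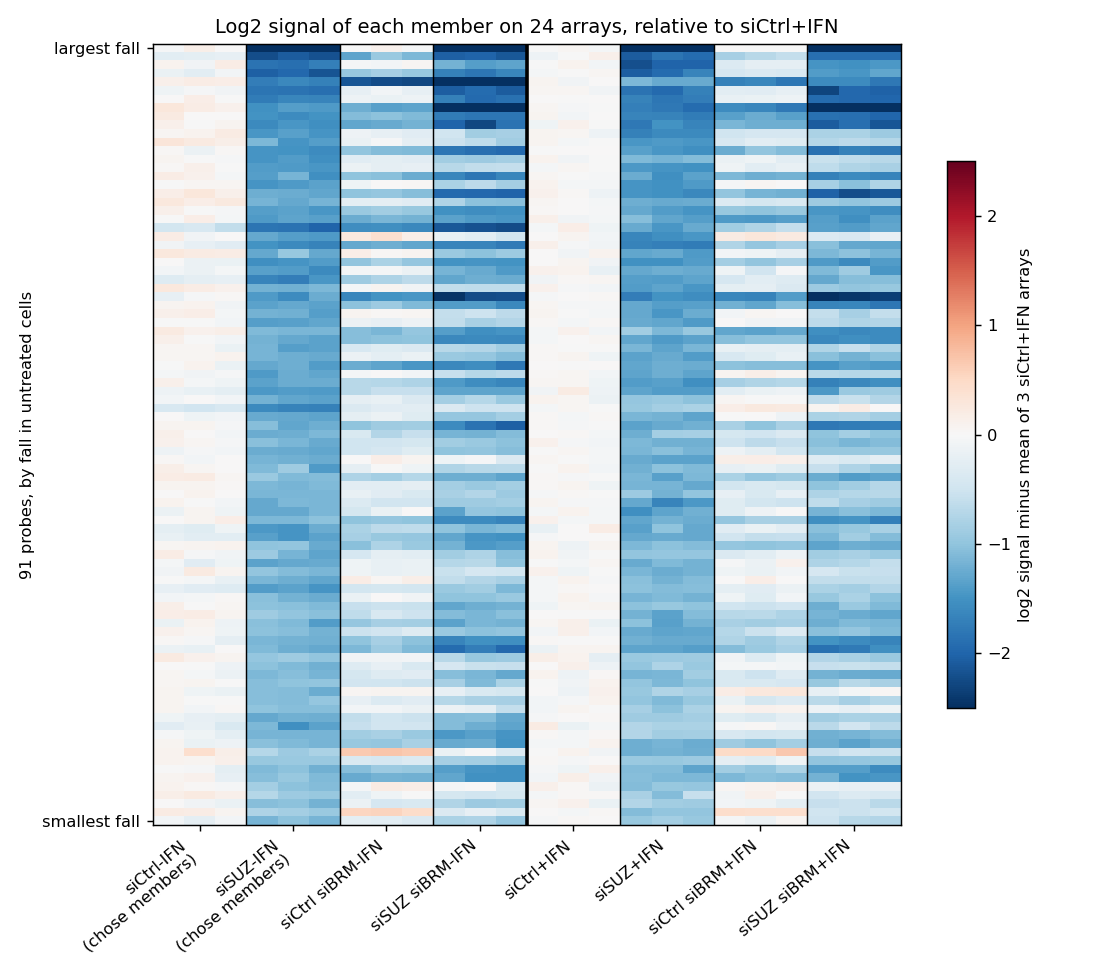
Heatmap of the 91 probes (rows, ordered by their fall in untreated cells) in the 24 arrays (columns, by group), as log2 signal relative to the mean of the 3 siCtrl arrays with IFNγ, with colours that saturate at the ends of the scale. The siSUZ12 columns are lower than the siCtrl columns for nearly every probe, and those with siBRM show a narrower gap, with mean log2 signals of 9.88 to 9.98 for siCtrl siBRM and 9.20 to 9.32 for siSUZ12 siBRM.

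The same picture was seen array by array. Averaged over the 91 probes, the log2 signal of the untreated siCtrl arrays was 10.44, 10.42 and 10.37, and that of the untreated siSUZ12 arrays was 9.15, 9.13 and 9.09. With IFNγ, it was 10.43, 10.43 and 10.40 in siCtrl cells and 9.15, 9.14 and 9.16 in siSUZ12 cells. With siBRM, the untreated arrays gave 9.88, 9.93 and 9.90 for siCtrl and 9.30, 9.26 and 9.20 for siSUZ12. With both siBRM and IFNγ they gave 9.96, 9.95 and 9.98 for siCtrl and 9.31, 9.32 and 9.30 for siSUZ12. The siCtrl and siSUZ12 arrays never overlapped in this average, and the gap between them was smaller with siBRM, with the larger shift on the siCtrl side.

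The first question was whether the fall was seen again in the IFNγ arrays, none of which had been used to choose the probes. The Methods place IFNγ after the transfections and do not say whether treated and untreated cells shared a transfection. The IFNγ arrays may thus not be independent of those that chose the probes. With IFNγ, siSUZ12 lowered all 91 probes relative to siCtrl (limma, Benjamini-Hochberg adjusted p-value below 0.05 over the whole array), where 6.95% of all probes and 20.5% of the detected probes were lower by the same call. It raised none of them, where it raised 7.28% of all probes. The fall was ≥ 2-fold for 74 of them, against 0.201% of all probes. The median log2 change was -1.24 (quartiles -1.38 and -1.06, range -2.90 to -0.78), while the median over all probes was -0.02. The siCtrl and siSUZ12 arrays did not overlap for any of the 91 probes, which was so, in this direction, for 14.1% of all probes. Over the 91 probes the untreated and the IFNγ falls, which share no arrays, correlated at a Pearson r of 0.88 and a Spearman rho of 0.79. These values describe probes on the same cells and siRNAs. They add no support, since the untreated fall is the value that chose the probes. With IFNγ, 85 of the 91 remained detected in all 3 siSUZ12 arrays and 2 were detected in none.

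**Figure D2:**
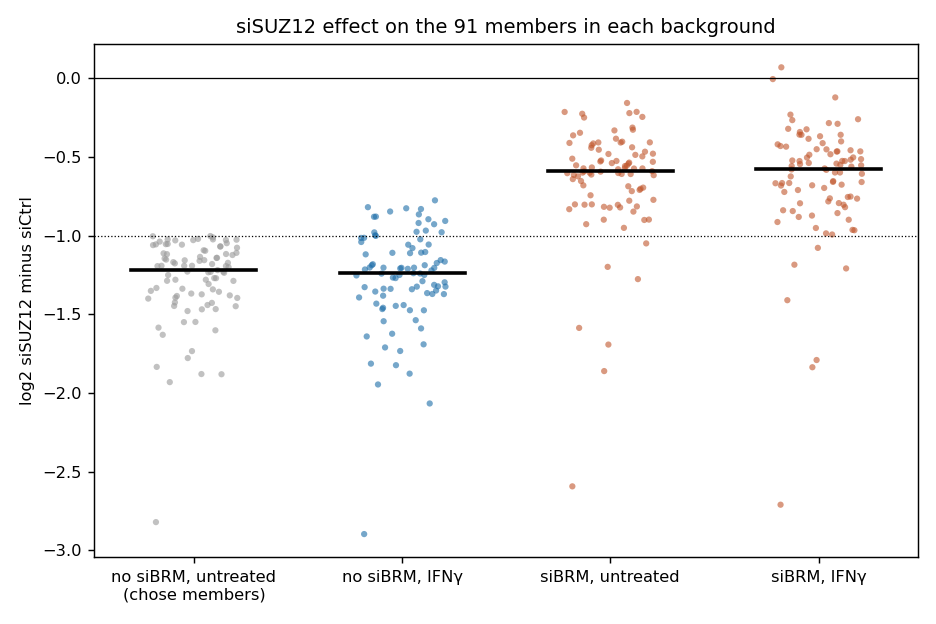
Log2 change from siCtrl to siSUZ12 for each of the 91 probes (points) in 4 settings, with medians as bars and a dotted line at a 2-fold fall. The untreated values without siBRM chose the probes, and the median was -1.24 with IFNγ but -0.59 and -0.58 in siBRM cells.

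The 4 probes given by ID were picked for their large changes in these same comparisons, so their p-values describe them and add no support to the counts. The largest fall was that of ILMN_1797813, a probe whose gene was not known here and could be SUZ12 itself. The signal of this probe was 4667, 5264 and 4833 in the untreated siCtrl arrays and 673.8, 704.7 and 709.8 in the untreated siSUZ12 arrays. With IFNγ it was 4738, 4961 and 4643 in siCtrl cells and 623.5, 652.1 and 650.5 in siSUZ12 cells. The 2 sets of arrays were far apart in both states. The log2 change with IFNγ was -2.90 (SE 0.07, n = 3 per group, limma adjusted p = 3.25e-25).

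For this probe no effect of siBRM passed the test with IFNγ. In siBRM cells its signal was 4752, 5128 and 4686 without and 4833, 4742 and 4774 with IFNγ, and siSUZ12 siBRM cells gave 854.8, 823.2 and 738.8 without and 735.6, 707.1 and 751.6 with IFNγ. Every siCtrl array, with or without siBRM, was above every siSUZ12 array. The log2 change by siSUZ12 in siBRM cells was -2.59 untreated (limma adjusted p = 2.92e-23) and -2.71 with IFNγ (limma adjusted p = 3.52e-24). The change by siBRM in siCtrl cells with IFNγ was 0.00, with a 95% confidence interval of -0.15 to 0.15. In siSUZ12 cells with IFNγ it was 0.19, with an interval of 0.04 to 0.34 (limma adjusted p = 0.222). The siSUZ12 siBRM arrays lay above those of siSUZ12 alone in both states.

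The next question was whether siSUZ12 still lowered the probes when BRM was also targeted. It did for most of them, by a smaller fold. In untreated siBRM cells, 84 of the 91 probes were lower with siSUZ12 than with siCtrl at an adjusted p-value below 0.05 (limma), where 2.98% of all probes and 9.58% of the detected probes were lower by the same call. In siBRM cells with IFNγ, 86 were lower, where 3.35% of all probes and 10.7% of the detected probes were. None was higher in either state, where 5.04% of all probes were higher untreated and 4.72% with IFNγ. The fall was ≥ 2-fold for only 7 of the 91 probes in each state, against 0.0169% of all probes in each.

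The median log2 change was -0.59 in untreated siBRM cells (quartiles -0.77 and -0.46, range -2.59 to -0.16) and -0.58 with IFNγ (quartiles -0.79 and -0.45, range -2.71 to 0.07). Probes lower in both states numbered 83, where 2.09% of all probes and 6.84% of the detected ones were, and 4 were lower in neither. Arrays did not overlap for 89 probes untreated and 88 with IFNγ, where 7.53% and 8.33% of all probes were separated in that direction. The 2 falls share no arrays, and over the 91 probes they correlated at a Pearson r of 0.94 and a Spearman rho of 0.85.

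The fall in siBRM cells was next set against that without siBRM by a test of the difference itself, in the arrays with IFNγ. The log2 change by siSUZ12 was less negative with siBRM for 65 of the 91 probes (limma interaction term, adjusted p-value below 0.05), where 0.697% of all probes and 2.08% of the detected probes were higher by the same call. It was more negative for none, where 0.599% of all probes were. The probes had been chosen for a large fall without siBRM, which by itself favours a smaller fall with it. Most other probes had no such fall to lose, so these shares are not a matched comparison. The difference had a median of 0.61 (quartiles 0.42 and 0.79, range -0.06 to 1.35), and it was ≥ 2-fold for 7 probes, against 0.0254% of all probes. For the other 26 probes the lowest bound of any confidence interval was -0.28 and the highest 0.76. A difference of the typical size lay inside some of these intervals and outside others. The interval of ILMN_1797813, for example, ended at 0.40. Without the arrays numbered 2, where 2 arrays per group remained, 35 of the 91 probes passed in place of 65.

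Divided by the fall without siBRM, the fall in siBRM cells with IFNγ had a median ratio of 0.511 (quartiles 0.375 and 0.615). The ratio was under 0.5 for 45 probes, between 0.5 and 0.9 for 42 and 0.9 or more for 4, and the fall was the smaller one in siBRM cells for 89 of the 91. In untreated cells the median ratio was 0.478, but its denominator was the value that chose the probes. ILMN_1797813 was 1 of the 4 probes at 0.9 or more, with a difference of 0.19 (95% confidence interval -0.03 to 0.40, limma adjusted p = 0.604). A pair of other probes fell by about as much in all 4 settings. One changed by -1.78 and -1.82 without siBRM and by -1.86 and -1.84 with it, untreated and with IFNγ respectively, and the other by -1.73 and -1.73 without and by -1.69 and -1.79 with it. These 2 were chosen after their values were seen.

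**Figure D3:**
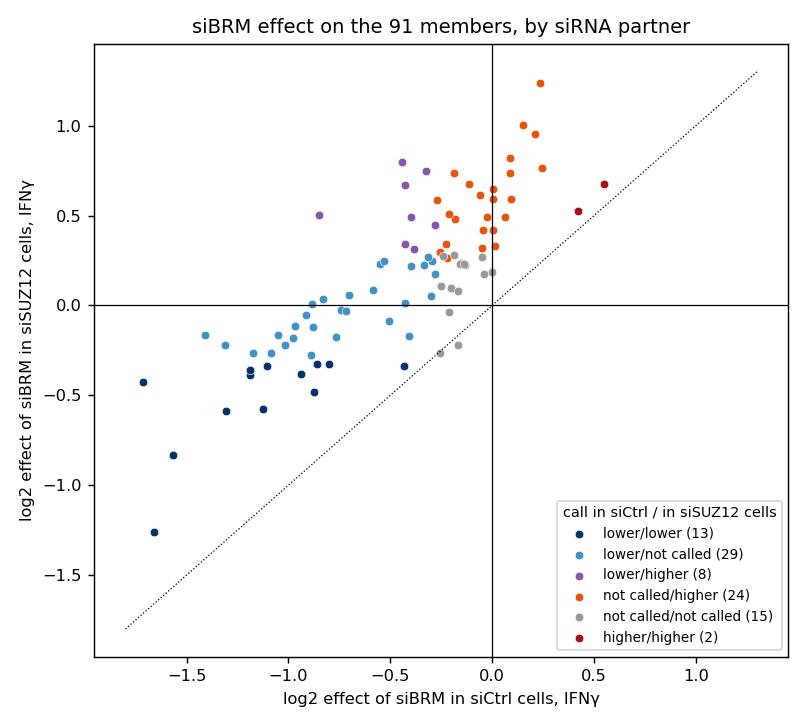
Log2 change by siBRM for the 91 probes with IFNγ, in siCtrl cells on the horizontal axis and in siSUZ12 cells on the vertical axis, coloured by whether the probe was lower, higher or not called in each. Points above the dotted line of equal change lost less signal with siSUZ12 when siBRM was present, and the medians were -0.31 in siCtrl cells and 0.22 in siSUZ12 cells.

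The smaller fall could arise on the siCtrl or the siSUZ12 side, and both sides moved. The probes had been chosen as higher in siCtrl than in siSUZ12 cells without siBRM. That choice by itself favours lower siCtrl and higher siSUZ12 signals with siBRM, which the shares of other probes do not account for. In siCtrl cells with IFNγ, siBRM lowered 50 of the 91 probes (limma, adjusted p-value below 0.05), where it lowered 1.72% of all probes and 5.43% of the detected ones. It raised 2, where it raised 1.41% of all probes and 4.18% of the detected ones, and 39 did not pass. The median log2 change was -0.31 (range -1.71 to 0.55), and 14 probes fell ≥ 2-fold, against 0.055% of all probes. Arrays with siBRM lay below those without it, with no overlap, for 63 probes, where this was so for 8.89% of all probes. In siSUZ12 cells with IFNγ, siBRM raised 34 probes, where it raised 1.68% of all probes and 4.84% of the detected ones. It lowered 13, where it lowered 1.71% of all probes and 4.64% of the detected ones, and 44 did not pass. The median there was 0.22 (range -1.26 to 1.24), with 2 probes higher and 1 lower ≥ 2-fold, against 0.00423% and 0.0296% of all probes. Without the arrays numbered 2, 30 probes in place of 47 passed in siSUZ12 cells.

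For 73 of the 91 probes the mean signal of siCtrl siBRM cells with IFNγ lay between those of siCtrl and siSUZ12 cells without siBRM, and for 3 it was at or below the siSUZ12 mean. The untreated arrays, where the siRNA groups without siBRM had served to choose the probes, are given without a test. There the median log2 change by siBRM was -0.36 in siCtrl cells (range -2.38 to 0.45) and 0.17 in siSUZ12 cells (range -1.45 to 1.19). The sign of the siBRM effect was the same untreated and with IFNγ for 84 probes in siCtrl cells and 86 in siSUZ12 cells.

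By their siBRM calls with IFNγ, the 91 probes fell into 6 classes. The largest, 29 probes, was lower with siBRM in siCtrl cells and not called in siSUZ12 cells, with medians of -0.74 and -0.03. A class of 24 probes was not called in siCtrl cells and higher in siSUZ12 cells, with medians of -0.01 and 0.59. Another 15 passed in neither, and 13 were lower in both, with medians of -1.12 and -0.39. The last classes were 8 probes lower in siCtrl and higher in siSUZ12 cells, and 2 higher in both. Of all probes, 1.22% were in the first of these classes, 1.3% in the second, 94.3% passed in neither, 0.455% were lower in both, 0.0423% lower in siCtrl and higher in siSUZ12 cells, and 0.337% higher in both. Of the detected probes the shares were 3.81%, 3.7%, 83.6%, 1.47%, 0.139% and 1% in the same order. All 13 probes that siBRM lowered in siSUZ12 cells were also lower with it in siCtrl cells. The median fall by siSUZ12 with IFNγ, which shares arrays with these calls, was -1.21 in the 29, -1.15 in the 24, -1.21 in the 15, -1.34 in the 13, -1.45 in the 8 and -1.11 in the 2. In siBRM cells it was -0.52, -0.54, -0.76, -0.76, -0.41 and -0.995 in the same order.

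ILMN_2170814 was lowered by either siRNA. Its signal with IFNγ was 1408, 1273 and 1358 in siCtrl cells, 614.1, 561.4 and 564.9 in siSUZ12 cells, 415.1, 432.3 and 385.1 in siCtrl siBRM cells and 451.7, 455.3 and 388.7 in siSUZ12 siBRM cells. The last 2 groups overlapped, and both were below siSUZ12 alone. In untreated cells the signal was 1470, 1538 and 1514 with siCtrl, 407.9, 441.3 and 419.6 with siSUZ12, 306.9, 285.2 and 279.8 with siCtrl siBRM and 240.6, 219.8 and 217.9 with siSUZ12 siBRM.

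With IFNγ, the log2 change of ILMN_2170814 by siSUZ12 was -1.21 (SE 0.08, n = 3 per group, limma adjusted p = 3.6e-14) without siBRM and 0.07 (95% confidence interval -0.09 to 0.23, limma adjusted p = 0.776) with it. The difference between them was 1.28 (SE 0.11, limma adjusted p = 5.41e-09). siBRM alone changed it by -1.71 in siCtrl cells (limma adjusted p = 4.98e-17) and by -0.43 in siSUZ12 cells (limma adjusted p = 0.000676). In untreated siBRM cells siSUZ12 changed it by -0.36 (limma adjusted p = 0.00191). Without the arrays numbered 2 that last p-value was 0.0538, and without those numbered 3 the p-value of the change in siSUZ12 cells was 0.0639.

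ILMN_1813256 moved with siBRM mainly in siSUZ12 cells. With IFNγ its signal was 1170, 1221 and 1112 in siCtrl cells and 374.8, 403.9 and 423.8 in siSUZ12 cells. With siBRM it was 1339, 1420 and 1368 in siCtrl cells and 925.6, 889.9 and 1017 in siSUZ12 cells. The siSUZ12 siBRM arrays were thus well above those of siSUZ12 alone and below all siCtrl arrays.

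Untreated, the same order was seen for ILMN_1813256, with signals of 1330, 1096 and 1174 for siCtrl, 481.9, 449.6 and 435.4 for siSUZ12, 1379, 1541 and 1298 for siCtrl siBRM and 1028, 968.9 and 852.6 for siSUZ12 siBRM. With IFNγ, the log2 change by siBRM was 1.24 in siSUZ12 cells (SE 0.09, limma adjusted p = 7.71e-12) and 0.24 in siCtrl cells (limma adjusted p = 0.179). The change by siSUZ12 was -1.54 without siBRM and -0.54 with it (limma adjusted p = 8.4e-16 and 3.04e-05), and the difference was 0.999 (SE 0.12, limma adjusted p = 4.25e-06).

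**Figure D4:**
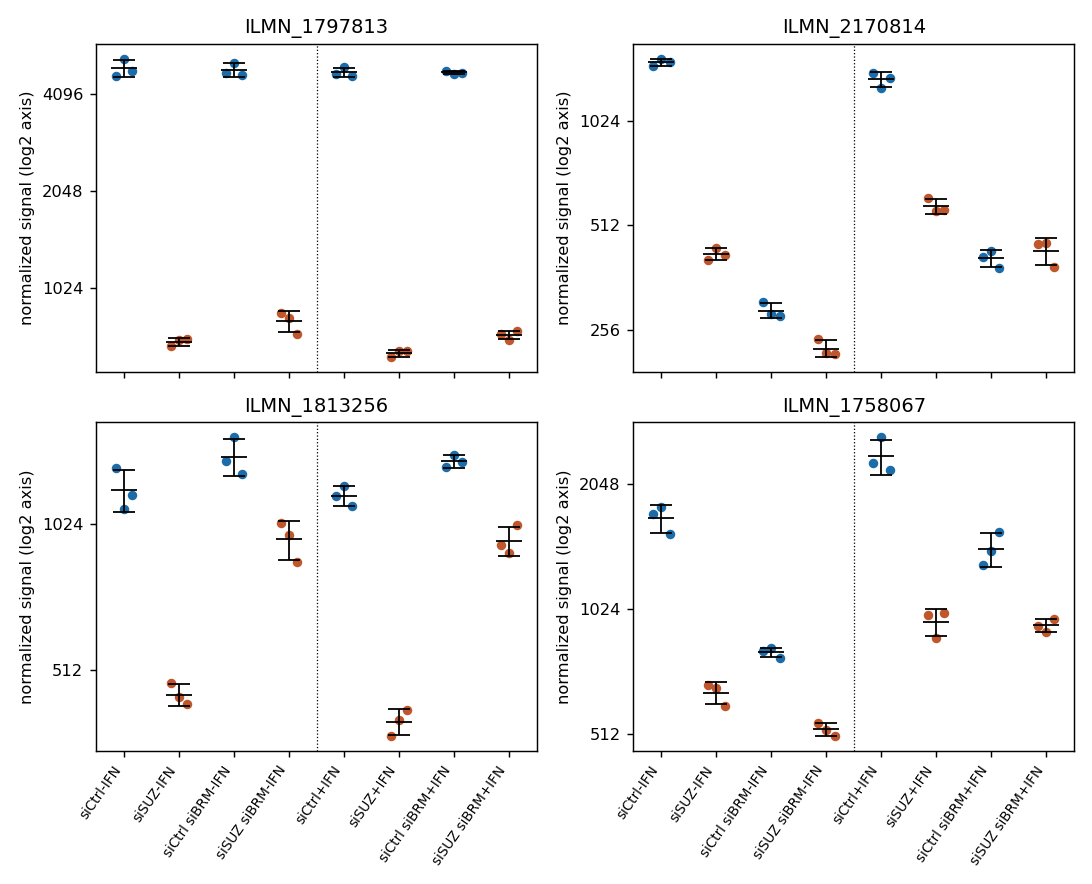
Scaled signal of 4 of the 91 probes in the 24 arrays (points, log2 axis), by group, with bars for the mean and SD of 3 arrays (siCtrl blue, siSUZ12 orange, untreated left of the dotted line). ILMN_1797813 separates mainly by SUZ12 siRNA, and ILMN_2170814 is lowered by either siRNA. ILMN_1813256 is higher with siBRM in siSUZ12 cells and ILMN_1758067 is higher with IFNγ.

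The last question was whether IFNγ itself moved these probes. It moved few. In siCtrl siBRM cells IFNγ raised 12 of the 91 probes and lowered 1 (limma, adjusted p-value below 0.05). It raised 0.987% and lowered 0.315% of all probes there, and raised 2.58% and lowered 0.959% of the detected ones. In siSUZ12 siBRM cells it raised 9 and lowered 2 of the 91. There it raised 1.44% and lowered 0.915% of all probes, and raised 3.49% and lowered 2.68% of the detected ones. Among the 91 probes, 8 were raised in both, where 0.771% of all probes and 2% of the detected ones were. None changed ≥ 2-fold, where IFNγ raised 0.159% of all probes by that much in siCtrl siBRM cells and lowered 0.00212%, and raised 0.296% in siSUZ12 siBRM cells. The median log2 change was 0.03 in both, with ranges of -0.36 to 0.82 and -0.37 to 0.93. Without the arrays of 1 replicate number, the counts changed in the 2 backgrounds fell from 13 and 11 to between 6 and 8 and between 5 and 8, while with a filter on detection the first rose from 13 to 23. The 13 probes raised in either background had a median change by siSUZ12 of -0.55 untreated and -0.61 with IFNγ in siBRM cells.

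Whether the IFNγ response differed between siSUZ12 and siCtrl cells was tested in siBRM cells, a test chosen after the data were seen. None of the 91 probes passed (limma interaction term), where 0.0974% of all probes were higher and 0.0191% lower, and 6 of the 91 had an unadjusted p-value below 0.05, or 6.59%, a share near the 4.88% of all probes and the 5.68% of the detected ones. The differences ran from -0.32 to 0.43. In cells without siBRM, whose untreated arrays had served to choose the probes, the log2 change by IFNγ ran from -0.23 to 0.49 in siCtrl and from -0.40 to 0.79 in siSUZ12 cells, given without a test.

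**Figure D5:**
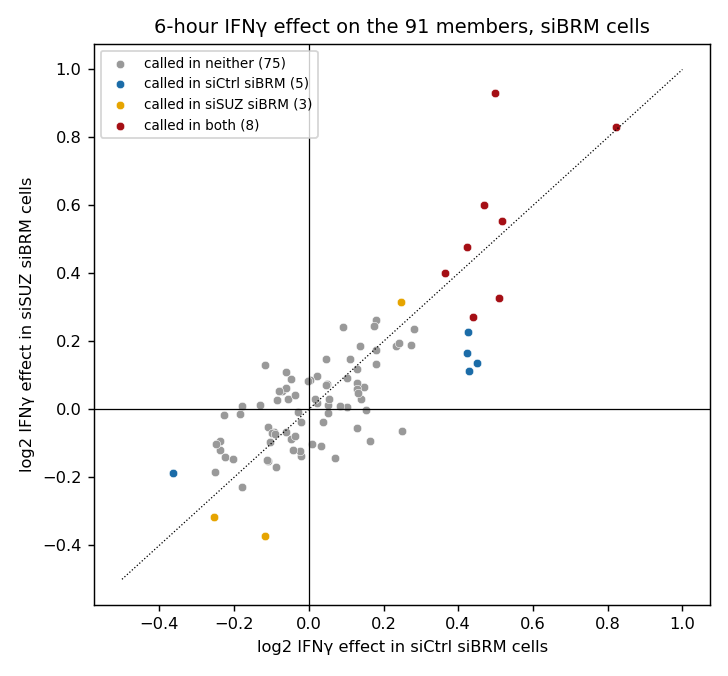
Log2 change by IFNγ for each of the 91 probes (points) in siCtrl siBRM cells (horizontal axis) and siSUZ12 siBRM cells (vertical axis), coloured by where the change was called, with equal changes on the dotted line. Most points gather around 0, 8 probes called in both backgrounds lie at the upper right, and the highest values are 0.82 and 0.93.

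ILMN_1758067 rose with IFNγ in siBRM cells. Its signal went from 809.1, 822.9 and 780.7 in untreated to 1305, 1408 and 1565 in IFNγ-treated siCtrl siBRM cells, and from 544.2, 523.8 and 507.0 to 932.1, 900.9 and 970.6 in siSUZ12 siBRM cells. The log2 change by IFNγ was 0.82 (limma adjusted p = 1.75e-08) and 0.83 (limma adjusted p = 8.45e-09). Arrays with and without IFNγ did not overlap in either background.

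Without siBRM, ILMN_1758067 gave 1732, 1798 and 1549 in untreated and 2299, 2652 and 2209 in IFNγ-treated siCtrl cells, and 672.8, 659.9 and 596.7 in untreated and 987.7, 871.4 and 998.3 in IFNγ-treated siSUZ12 cells. siSUZ12 lowered it in both IFNγ settings, by a log2 change of -1.32 without siBRM (limma adjusted p = 2.99e-14) and -0.61 with it (limma adjusted p = 3.65e-06). The difference was 0.72 (limma adjusted p = 0.000555), and without the arrays numbered 2 it was 0.60 (limma adjusted p = 0.123). siBRM changed it by -0.74 in siCtrl cells with IFNγ (limma adjusted p = 2.27e-07) and by -0.03 in siSUZ12 cells (limma adjusted p = 0.956).

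ILMN_2170814 also rose with IFNγ in siBRM cells, by a log2 change of 0.50 with siCtrl (limma adjusted p = 8.42e-05) and 0.93 with siSUZ12 (limma adjusted p = 7.7e-11). The 2 responses differed by 0.43 (95% confidence interval 0.20 to 0.66), which did not pass after adjustment over all probes (limma adjusted p = 0.227).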

How the data were processed

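RNA of SW-13 cells was hybridized by the authors to Illumina Human-HT-12 BeadChips, 3 biological replicates for each of 8 groups, which were read from the sample labels. The authors deposited unnormalized probe intensity values beside BeadStudio's detection p-values, and its version and background setting are not given in the sources used here. Each array was brought to the common mean of the 24 arrays, set to a floor of 16 (reached by 0 values) and log2-transformed. One limma 3.58.1 fit (R 4.3.3, lmFit, contrasts.fit, eBayes) had a mean per group and 16 residual degrees of freedom, and p-values were Benjamini-Hochberg adjusted over 47231 probes. The smallest p-value of a permutation test of 3 arrays against 3 is 0.1. The number of arrays limits the precision. Plots used matplotlib 3.10.9 (Python 3.11.15).

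The 91 probes, the gene lists and the tests were chosen with earlier results of these data known. The design listed genes and markers to be named, but 0 probe IDs matched the name tables at hand, and gene lists, promoters and targeted genes were not analysed here. By the rule for that case, 2 probe IDs that fell and 2 that rose were printed from those with the largest changes in the comparisons. Alternatives were quantile and neqc normalization, a floor of 64, a detection filter (3 arrays), a 4-group fit, eBayes with trend and robust options, a block for the replicate number, calls at 2-fold, other choices of members, and leaving out each replicate number. Leaving out each single array was added after seeing the data. Arrays of BRG1-reconstituted cells were not analysed here.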

Additional observations from a re-analysis of the deposited data

Results flagged for a closer look

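For 65 of the 91 probes siBRM altered the effect of siSUZ12 with IFNγ (limma interaction term, adjusted p-value below 0.05), and in each of them the log2 change was less negative with siBRM. The same call was made for 0.697% of all probes and 2.08% of the detected ones, and without the arrays numbered 2 the count was 35. The choice of the probes by their fall without siBRM favours this direction. The difference on the log2 scale was 1.28 for ILMN_2170814, 0.999 for ILMN_1813256 and 0.72 for ILMN_1758067, which were picked for large changes in related comparisons. Without the arrays numbered 2 the last was 0.60 (limma adjusted p = 0.123). The total siRNA dose was higher in the siBRM cells, and its part in these differences cannot be told apart from that of BRM.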

How the results depend on the processing

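All 91 probes were lower with siSUZ12 and IFNγ under quantile and neqc normalization, the floor of 64, the filter on detection, the fit of 4 groups, eBayes with trend, the replicate block and every array left out. With calls at 2-fold, 7 probes were lower in siBRM cells untreated and 7 with IFNγ, 7 differed between cells with and without siBRM, 14 were lower with siBRM in siCtrl cells, 3 changed with siBRM in siSUZ12 cells, and 0 changed with IFNγ in either siBRM background. With the detection filter, 23 in place of 13 changed with IFNγ in siCtrl siBRM cells, where fewer probes were tested. Members chosen again after neqc numbered 248 and held all 91, and the same comparisons then gave 246 with IFNγ, 166 and 182 in siBRM cells, 102 for the difference, 89 and 79 for siBRM, and 25 and 24 for IFNγ. Of the 68 members that fell ≥ 2-fold in each numbered pair, 7 changed with IFNγ in siSUZ12 siBRM cells.

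Leaving out each replicate number gave 91 with IFNγ, 75 to 81 and 75 to 79 in siBRM cells, 35 to 45 for the difference, 35 to 41 for siBRM in siCtrl cells, 30 to 35 in siSUZ12 cells, and 6 to 8 and 5 to 8 for IFNγ. Leaving out 1 array gave 59 to 63 for the difference, 39 to 42 for siBRM in siSUZ12 cells, and 9 to 13 and 8 to 9 for IFNγ. With arrays left out, the uncalled change of ILMN_1797813 by siBRM in siCtrl cells with IFNγ ran from -0.0196 to 0.0344 and that of ILMN_1758067 in siSUZ12 cells from -0.0882 to 0.00988, across 0. The replicate block gave 67 for the difference, 48 for siBRM in siSUZ12 cells and 14 for IFNγ in siCtrl siBRM cells, and left the other counts at 91, 84, 86, 50 and 11. Correlations of deviations between arrays with the same number were 0.03 to 0.36 for number 1 (median 0.165). They were -0.10 to 0.08 for number 2 (median -0.005) and -0.07 to 0.29 for number 3 (median 0.131). In that order, 8, 0 and 8 of 8 arrays correlated best with their own number. Arrays numbered 1 and those numbered 3 thus shared some deviation. The deviations were taken from the mean of the 3 arrays of each group, so they are not independent between numbers. The values near 0 for number 2 therefore do not show that its arrays shared nothing. The main fit did not use the numbers, and the replicate block did.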
